A study of Homo sapiens with 6 samples.

Results

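A chosen set of kinases that sorafenib is known to inhibit was examined at the RNA level in cells that had become resistant to it. Its members are the RAF kinases BRAF and ARAF, the VEGF receptors FLT1, KDR and FLT4, the PDGF receptors PDGFRA and PDGFRB, and the receptors KIT and RET. The set is not a full list of sorafenib targets, and MAPK14, another of them, is described further below. The members were found by symbol, and all 9 were among the 38637 genes of the expression table. HCCLM3-SR is a sorafenib-resistant derivative of the human hepatocellular carcinoma (HCC) line HCCLM3, made by long exposure to rising drug concentrations. Its polyadenylated RNA was sequenced in 3 libraries from cells given siRNA against cDCBLD2, a circular RNA from the DCBLD2 gene, and in 3 libraries from cells given control siRNA. The siRNA acted for 3 days, and both groups were kept in 5 µM sorafenib. Parental HCCLM3 cells and cells without the drug were not analysed here, so a level here is that of a resistant line under treatment. Levels are in TPM (transcripts per 1000000), a unit corrected for gene length in which every library adds up to the same total.

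Sorafenib is a multikinase inhibitor used in advanced HCC. RAF kinases are activated by RAS at the membrane and phosphorylate MEK, which in turn phosphorylates ERK and drives proliferation. The receptors bind growth factors outside the cell and feed into the same RAS pathway, and in liver tumours the VEGF and PDGF receptors are best known from blood vessels and stroma rather than from the tumour cells. KIT is typical of mast cells and melanocytes, and RET of neural crest derivatives.

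Between 17492673 and 23064302 reads per library were recovered from the TPM values, as lower bounds. No library was set aside. Of 10 hepatocyte and hepatoma markers 6 reached a mean of 1 TPM, with KRT8, KRT18 and HNF4A well above it, while ALB, APOA1, TF and GPC3 did not. Their summed level was 5840 to 7010 TPM with knockdown and 4830 to 5650 TPM in the controls, most of it keratin. Endothelial genes reached that level in 2 of 8 cases, PECAM1 and ESAM, with a sum of 28.1 to 30.3 TPM with knockdown and 20.8 to 23.6 TPM in the controls, and TIE1 was listed at 0 in every library. Of the mast cell and leukocyte genes 0 of 5 did so, and TPSAB1 and CPA3 were listed at 0 throughout. DCBLD2, the host gene of the targeted circRNA, had levels of 58.1, 25.9 and 31.6 TPM with knockdown (replicates 1, 2 and 3, the order used throughout) and of 71.5, 48.5 and 50.7 TPM with control siRNA. Its log2 fold change was -0.61 (SE 0.306, adjusted p = 0.253 by limma, 0.0139 with the replicate numbers as a block). It was -0.29 with the GC-content offset, in which each library's trend with transcript GC content is taken out (adjusted p = 0.463) and -0.95 without knockdown replicate 1 (adjusted p = 0.0222), both by limma. Gene-level values do not separate the circRNA from the linear transcript, so they do not check the knockdown.

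Of the 9 targets, 2 were expressed at a mean of at least 1 TPM over the 6 libraries, and both were RAF kinases. The 7 receptors were all below that level. Of these, 4 gave reads in every library and 3 were listed at 0 in at least 1 library, and 0 of the 9 were at 0 in all libraries. By mean level the order was ARAF at 41.0 TPM, BRAF at 2.73 TPM, PDGFRA at 0.276 TPM, PDGFRB at 0.117 TPM, KIT at 0.0844 TPM, RET at 0.0662 TPM, KDR at 0.0298 TPM, FLT4 at 0.0114 TPM and FLT1 at 0.00344 TPM. The ranges over libraries of ARAF and BRAF did not overlap, nor did those of BRAF and PDGFRA. From PDGFRA downward the range of each receptor overlapped that of the next, so the order among receptors is one of means. Within libraries PDGFRA was above PDGFRB in every one. Among protein-coding genes, 81.6% had a lower mean than ARAF and 45.7% a lower mean than BRAF, against 33.4% for PDGFRA and 14.6% for FLT1.

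**Figure D1:**
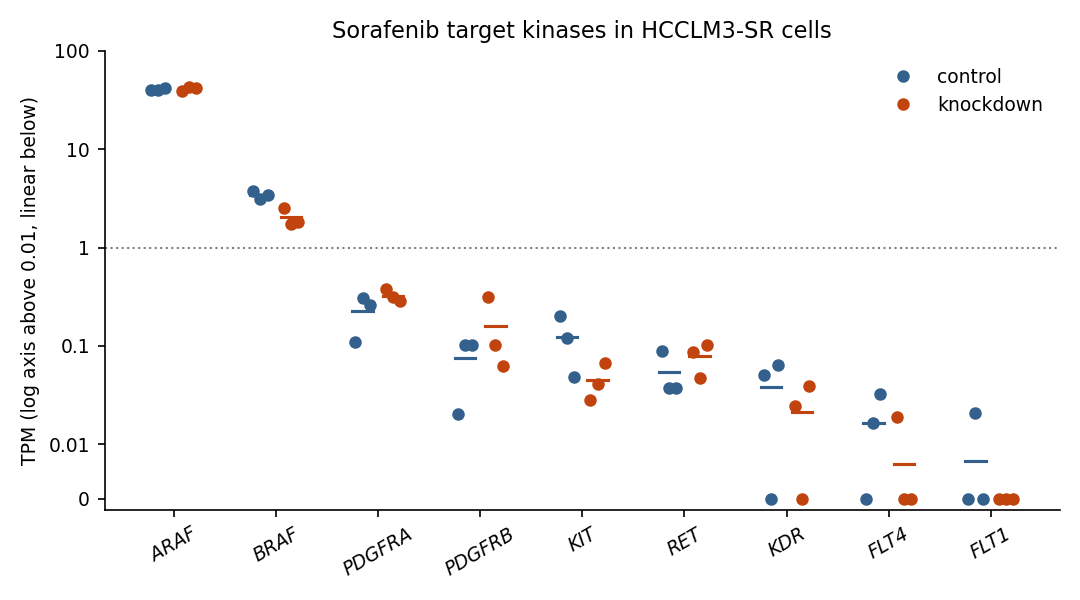
TPM of the 9 sorafenib target kinases in each library, with the vertical axis logarithmic above 0.01 TPM and linear below it. Points are libraries, blue for control and orange for knockdown, short lines are group means (n = 3 each), and the dotted line marks 1 TPM. Only ARAF and BRAF lie above the line, and the 7 receptors lie at or below 0.375 TPM.

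ARAF lies on the forward strand at chrX:47561100-47571920 of GRCh38 (ENSG00000078061.12), and BRAF on the reverse strand at chr7:140719327-140924928 (ENSG00000157764.13). The 150 bases upstream of a transcription start are printed below for these expressed kinases and, for contrast, for KIT and FLT1, receptors with few or no reads. They come from RefSeq on GRCh38.p14, which had a window for 8 of the 9 members, and are written 5′ to 3′ on the gene's own strand with each CpG (the letters CG, which read the same on both strands) in capitals. The windows are chrX:47561055-47561204 on the forward strand, chr7:140924269-140924418 on the reverse strand, chr4:54657807-54657956 on the forward strand and chr13:28495129-28495278 on the reverse strand. The BRAF window lies wholly inside the gene span given above, and the ARAF window partly. Both are thus upstream of a start within the span, not of its outermost end.
ARAF promoter: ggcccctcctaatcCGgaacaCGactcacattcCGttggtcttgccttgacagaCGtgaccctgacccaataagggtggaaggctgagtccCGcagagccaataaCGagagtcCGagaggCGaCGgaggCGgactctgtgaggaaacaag
BRAF promoter: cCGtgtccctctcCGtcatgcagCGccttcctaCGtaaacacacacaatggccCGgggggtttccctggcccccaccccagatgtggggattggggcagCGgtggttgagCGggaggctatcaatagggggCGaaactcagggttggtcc
KIT promoter: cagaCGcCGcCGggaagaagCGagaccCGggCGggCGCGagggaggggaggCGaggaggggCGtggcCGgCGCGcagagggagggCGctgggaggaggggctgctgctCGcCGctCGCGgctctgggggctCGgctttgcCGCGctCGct
FLT1 promoter: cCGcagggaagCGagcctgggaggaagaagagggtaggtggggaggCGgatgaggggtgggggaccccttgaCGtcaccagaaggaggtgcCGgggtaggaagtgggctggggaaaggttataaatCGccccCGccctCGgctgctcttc
ARAF had 10 CpGs in this window, BRAF 8, KIT 22 and FLT1 8, beside a median of 7 over 35116 promoter windows of the same length. At least as many CpGs were found in 42.8% of all windows for ARAF, in 48.5% for BRAF and for FLT1, and in 7.8% for KIT. The BRAF and FLT1 windows thus had the same number of CpGs although only BRAF was expressed, and the most CpG-rich of these windows belonged to KIT. Which start the BRAF reads came from was not tested. The libraries hold no measure of methylation or of factor binding, so the windows are given as sequence only.

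ARAF, the RAF isoform with the weakest known kinase activity, was the most abundant of the 9 targets, with no overlap in range with the next. Its level was 39.1, 43.2 and 41.9 TPM with knockdown and 39.5, 40.1 and 42.3 TPM with control siRNA. The groups overlapped, with both the lowest and the highest library in the knockdown group. The means were 41.4 TPM ± 2.14 (SD, n = 3) with knockdown and 40.6 TPM ± 1.45 (SD, n = 3) in the controls. On the log2(TPM + 1) scale the difference of knockdown minus control was 0.03 (SE 0.073), with an adjusted p of 0.845 by limma. Between 803 and 1227 reads per library lay behind these values. The exons of ARAF share 23 of their 3535 annotated bases, or 0.65%, with SYN1 on the other strand. Whether any ARAF reads came from SYN1 was not tested. ARAF made up 90.3 to 95.1% of the TPM summed over the 9 targets.

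BRAF, the RAF isoform most readily activated by RAS, was expressed at a low level that differed between the groups without overlap. Its level was 2.55, 1.73 and 1.80 TPM with knockdown and 3.78, 3.10 and 3.40 TPM with control siRNA, so the highest knockdown library was below the lowest control. Group means came to 2.03 TPM ± 0.457 (SD, n = 3) and 3.42 TPM ± 0.340 (SD, n = 3), a ratio of 0.593. The values rest on 295, 271 and 263 reads with knockdown and on 424, 414 and 453 reads in the controls. In bulk RNA, fewer cells expressing a gene and less RNA per cell cannot be told apart.

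The difference in BRAF did not pass the test in the design without pairing, and it passed when libraries were paired by their replicate number. On the log2(TPM + 1) scale it was -0.55 (SE 0.153), with an unadjusted limma p of 0.0096 and an adjusted p of 0.0984 over 13980 genes. With the replicate number as a block the SE was 0.114 and the adjusted p 0.0182 by limma. On simulated data the fit with the block made more false calls than its threshold allows, so calls made only with the block, here and below, are less sure. Within the same-numbered pairs, log2 of the TPM ratio was -0.56, -0.84 and -0.91. The groups did not overlap, so any pairing gives values below 0 and the signs add no support. Without knockdown replicate 1, the knockdown library with the highest BRAF level, the difference was -0.68 and the adjusted p 0.0222 by limma. limma-voom on the recovered reads gave -0.68 (SE 0.158, adjusted p = 0.0629) without the block, and an adjusted p of 0.00095 with it.

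**Figure D2:**
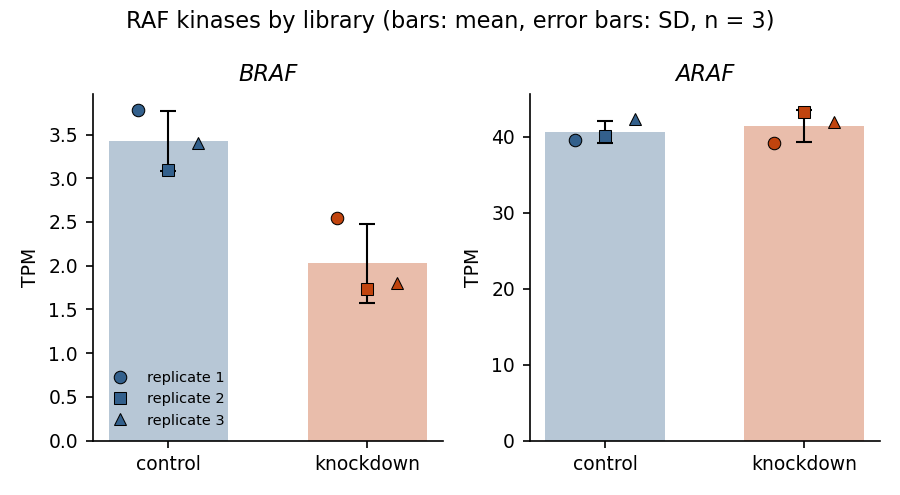
TPM of BRAF and ARAF in each library, each panel with its own linear axis from 0. Bars are group means and error bars SD (n = 3), and the symbol gives the replicate number. All 3 knockdown libraries lie below all 3 control libraries for BRAF, and the groups overlap for ARAF.

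The BRAF difference is set here beside transcript base composition. The longest annotated BRAF transcript has a GC content of 40.0%, which puts it in the lowest quintile of the tested genes (29.8 to 41.2%), whose 2594 genes had a median log2 fold change of -0.39. ARAF, at 58.9%, lies in the highest quintile, where the median was 0.11. With the GC trend of every library taken out, the BRAF difference was -0.19 (adjusted p = 0.309, and 0.186 with the block, by limma). For ARAF it was then -0.07, with the sign turned and an adjusted p of 0.537 by limma. The median of all tested genes was -0.08 on this scale, and -0.02 when each library was scaled to its upper quartile. The GC-content offset takes out any difference shared by genes of like GC content, whatever its source. What part of the BRAF difference comes from base composition was not tested.

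An overlapping gene limits the BRAF value. BRAF exons share 1239 of their 23432 annotated bases, or 5.29%, with NDUFB2, a subunit gene of respiratory complex I on the other strand, and no strand setting is given for the counting. NDUFB2 had 420, 343 and 322 TPM with knockdown and 355, 314 and 297 TPM in the controls, far above BRAF. Its log2 fold change was 0.16 (SE 0.12, adjusted p = 0.426 by limma, 0.0376 with the block), opposite in sign to that of BRAF, and 0.38 with the GC-content offset. How many BRAF reads came from NDUFB2 was not tested.

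The counts of called targets are set beside those of all genes here. Among the 13980 genes tested, limma at an adjusted p under 0.05 called 0.629% lower and 0.25% higher with knockdown, and 0 of the 2 expressed targets in either direction. At an unadjusted p under 0.05 it called 1 of the 2, BRAF, and 26.1% of all genes. With the block 25.0% of genes were called lower and 9.94% higher, and 1 of the 2 targets was called lower, BRAF. limma-voom called 0 targets without the block and 1 with it, where the share of all genes called is not given. Without the block it called 1.72% of 15018 genes lower and 1.29% higher. All knockdown libraries lay below all control libraries in 22.3% of genes and above them in 9.58%, so the separation of the groups seen for BRAF was shared by many genes. Under the study's fold threshold, a log2 fold change beyond 1 in size, 0 targets passed in any of these fits.

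**Figure D3:**
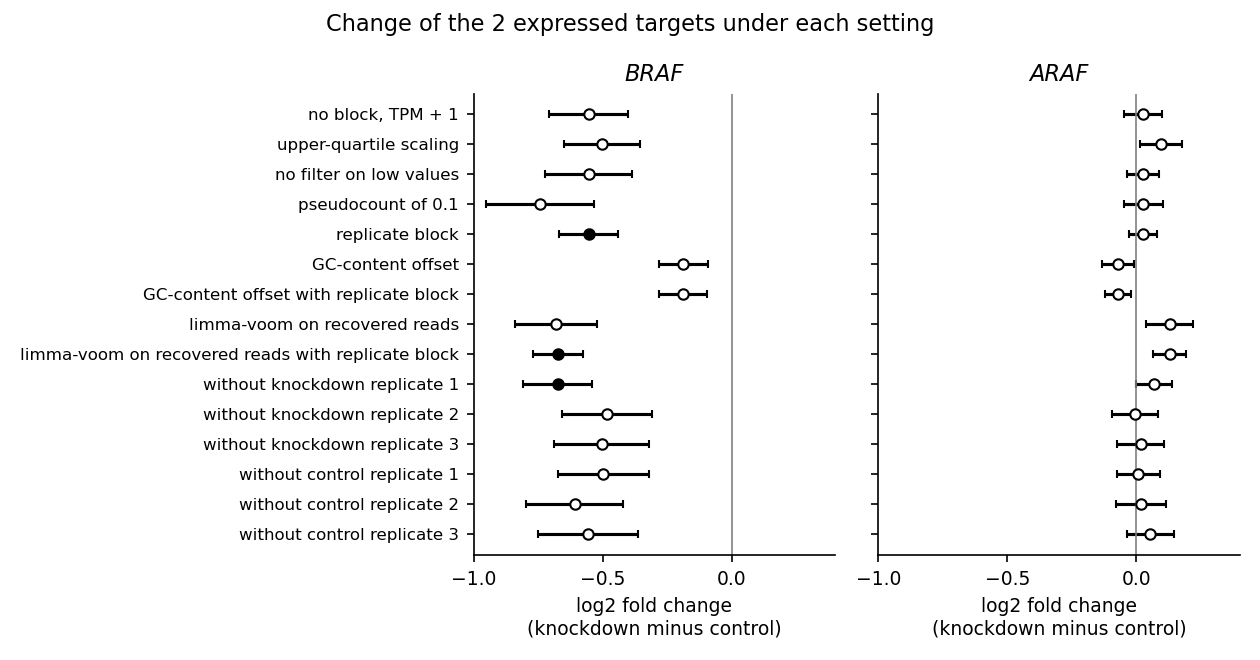
Log2 fold change of BRAF (left) and ARAF (right), knockdown minus control, under each way of processing. Points are estimates with SE bars, filled where the adjusted p was under 0.05. BRAF is below 0 in every row, filled in 3 rows, and nearest to 0 with the GC-content offset, while ARAF lies on both sides of 0.

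The balance of the 2 expressed targets was then compared within libraries, which does not depend on library scaling. ARAF RNA exceeded BRAF RNA by 15.3, 25.0 and 23.2 times in the knockdown replicates and by 10.5, 13.0 and 12.4 times in the controls, per length. As log2 of BRAF over ARAF the libraries stood at -3.93, -4.65 and -4.54 with knockdown and at -3.39, -3.69 and -3.64 in the controls. The groups did not overlap, the mean difference was -0.80, and the two-sided exact permutation test gave p = 0.1, the smallest that 3 against 3 libraries allow. With the libraries paired the exact p was 0.25, also the smallest possible for 3 pairs. On log2(TPM + 1), the scale of the GC-content offset, the mean difference was -0.58 without the offset and -0.12 with it. In reads rather than per length the gap was smaller, at 1.89 to 4.53 ARAF reads for each BRAF read, because the TPM values divide BRAF by a length 5.53 times that of ARAF. The longest annotated transcripts give a ratio of 3.83, so the size of the gap depends on the gene models behind the table, while its direction does not.

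By mean over all libraries PDGFRA and PDGFRB came first among the receptors, at trace level. PDGFRB was above KIT with knockdown (means of 0.159 and 0.0453 TPM) but below it in the controls (0.0746 and 0.124 TPM). PDGFRA, which binds PDGF-A and other PDGF dimers, had 21, 24 and 20 reads in the knockdown replicates and 6, 20 and 17 reads in the controls, or 0.110 to 0.375 TPM. Control replicate 1 was the lowest and the groups overlapped. PDGFRA exons share 1533 of their 9732 annotated bases, or 15.75%, with an unnamed transcript, AC058822.1, on the same strand. Whether any PDGFRA reads came from that transcript was not tested. limma-voom, which could test PDGFRA because it had enough reads, gave a log2 fold change of 0.67 (SE 0.388) with an adjusted p of 0.307, or 0.251 with the block.

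PDGFRB, the receptor for PDGF-B found on pericytes and fibroblasts, had 16, 7 and 4 reads with knockdown and 1, 6 and 6 reads in the controls. The groups overlapped, and the highest library was knockdown replicate 1 at 0.314 TPM. Of the 8 pericyte and fibroblast markers 6 were at their highest in that library, among them the collagen genes COL1A1 at 11.2 TPM and COL3A1 at 3.36 TPM and the proteoglycan gene LUM at 59.1 TPM. ACTA2, at 3.59 TPM, and the pericyte gene RGS5, at 0.304 TPM, were not. Of the list 4 reached a mean of 1 TPM, and the sum of all 8, most of it LUM, ran from 36.3 to 80.6 TPM with knockdown and from 34.5 to 46.5 TPM in the controls. The part of such RNA in the PDGFRB value was not tested. Without replicate 1 the knockdown mean was 0.0816 TPM, beside 0.0746 TPM in the controls.

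KIT, the receptor for stem cell factor, had 1, 2 and 3 reads with knockdown and 7, 5 and 2 reads in the controls. RET, the receptor of the GDNF family, had 4, 3 and 6 reads with knockdown and 4, 2 and 2 reads in the controls. For both receptors the groups overlapped, and no library exceeded 0.201 TPM.

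The VEGF receptors, the targets behind the anti-angiogenic action of sorafenib, were barely detected. KDR, the main signalling receptor of VEGF-A, had 1, 0 and 2 reads with knockdown and 2, 0 and 3 reads in the controls. FLT4, the receptor of VEGF-C and VEGF-D, had 1, 0 and 0 reads and 0, 1 and 2 reads. FLT1, a high-affinity receptor of VEGF-A, VEGF-B and PGF, was listed at 0 in 5 libraries and at 0.0206 TPM in control replicate 2. The recovery always gives 1 read to a gene above 0 in only 1 library. The FLT1 read and the FLT1 values in TPM derived from it below therefore follow from that rule. A count of 0 allows up to 3 reads, which for FLT1 is 0.0527 to 0.0736 TPM, for KDR 0.0546 to 0.064 TPM and for FLT4 0.0419 to 0.0585 TPM, for counting error only. A 0 in these libraries is therefore not shown to be absence, and no fold change is given for these receptors.

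The 7 receptors together gave 44, 36 and 35 reads with knockdown and 20, 35 and 32 reads in the controls, a summed level of 0.471 to 0.846 TPM. When all genes above 0 were tested without a filter on low values, 0 of the 7 receptors was called by limma, with adjusted p between 0.417 for KIT and 0.849 for FLT1. At unadjusted p under 0.05 the count was also 0 of 7. At a few reads per library such a test has little reach, and the values do not show that the receptors were alike in the groups.

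Ligands of the trace receptors were often abundant. Of 14 ligand genes 8 reached 1 TPM. VEGFB, a FLT1 ligand and on average the most abundant of the ligands, stood at 100, 120 and 123 TPM with knockdown and at 101, 96.2 and 100 TPM in the controls (log2 fold change 0.20, adjusted p = 0.225 by limma, 0.0254 without knockdown replicate 1). On limma-voom its adjusted p was 0.14, and 0.0154 with the block, while with the GC-content offset its log2 fold change was 0.03. VEGFA, named here after its values were seen, ran from 53.4 to 173 TPM over the 6 libraries, beside at most 3 recovered KDR reads in any of them.

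PDGFB, the ligand of PDGFRB and PDGFRA, had the largest difference among the tested ligands. It stood at 23.0, 29.7 and 47.1 TPM with knockdown and at 6.11, 9.51 and 11.4 TPM in the controls, and the groups did not overlap. The log2 fold change was 1.75 (SE 0.305), with an adjusted p of 0.0544 by limma, 0.00348 with the block and 0.00234 with the block and the GC-content offset. On limma-voom it was 1.96 (adjusted p = 0.0403). PDGFB RNA was thus higher in 3 of 3 knockdown libraries than in any control, while its receptor PDGFRB stayed at 16 recovered reads or fewer.

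With the block, 3 of the 8 tested ligands were called higher, VEGFA, PDGFA and PDGFB, and 1 lower, KITLG, the ligand of KIT. Of all genes, 9.94% were called higher and 25.0% lower in that fit. KITLG, like VEGFA described after its values were seen, stood at 22.0, 8.17 and 8.23 TPM with knockdown and at 26.6, 17.3 and 18.3 TPM in the controls, with overlap (log2 fold change -0.78, adjusted p = 0.0207 with the block by limma, 0.248 without). With the GC-content offset added to the block the log2 fold change was -0.35 (adjusted p = 0.078 by limma), and without knockdown replicate 1, in the fit without the block, -1.22 (adjusted p = 0.0159 by limma). The RET ligand NRTN, also outside the rule for named genes, was at 5.57 to 12.7 TPM. Its log2 fold change was -0.31 (adjusted p = 0.47 by limma). With the GC-content offset it was -0.50 (adjusted p = 0.173, and 0.0135 with the block, by limma). GDNF was above 0 in 1 library only, at 0.0317 TPM in knockdown replicate 1. Of the co-receptors that present these ligands to RET, GFRA2, GFRA3 and GFRA4 were listed at 0 in all libraries. GFRA1 was listed at 0 in the controls and at 0.0282, 0.0104 and 0.0112 TPM with knockdown, on 2, 1 and 1 recovered reads. NRP1, a co-receptor of VEGF-A, was well expressed at 32.7 to 49.2 TPM, with a log2 fold change of -0.24 (adjusted p = 0.233 by limma, 0.0214 with the block). With the block and the GC-content offset it was -0.02 (adjusted p = 0.849 by limma), and limma-voom with the block gave an adjusted p of 0.0832.

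Downstream of the receptors, the RAS and MAPK genes were well expressed. The 7 adaptor and RAS genes and the 3 MEK and ERK genes examined all reached 1 TPM. SOS1, an exchange factor that activates RAS, stood at 11.8, 6.57 and 8.70 TPM with knockdown and at 19.7, 16.0 and 18.7 TPM in the controls. The groups did not overlap, and the log2 fold change was -0.96 (SE 0.201, adjusted p = 0.0663 by limma, 0.00556 with the block, 0.0464 on limma-voom). With the block and the GC-content offset it was -0.54 (adjusted p = 0.0075 by limma). With the block 4 of the 7 adaptor and RAS genes were called lower, SOS1, SOS2, PTPN11 and NRAS, and 2 higher, SHC1 and HRAS, beside 25.0% and 9.94% of all genes. With the GC-content offset added SOS2, NRAS and HRAS were no longer called, at adjusted p of 0.0852, 0.165 and 0.0986 by limma, which left 2 lower and 1 higher.

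The adaptor GRB2 was the most abundant of its group, at 303 to 326 TPM, with a log2 fold change of 0.01. Among regulators of RAF, the inhibitor PEBP1 stood at 720 to 811 TPM with a log2 fold change of 0.00. SHOC2, a scaffold of the phosphatase that primes RAF for activation, differed by -0.76 (adjusted p = 0.156 by limma, 0.00913 with the block), and by -0.34 with the block and the GC-content offset (adjusted p = 0.0309). MAP2K2, which encodes MEK2, stood at 182 to 218 TPM with a log2 fold change of 0.06. MAPK14, which encodes the stress kinase p38 alpha, another kinase that sorafenib inhibits, stood at 21.3 to 26.6 TPM with overlapping groups. Its log2 fold change was -0.11 (SE 0.092, adjusted p = 0.471 by limma), and 0.06 with the GC-content offset.

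**Figure D4:**
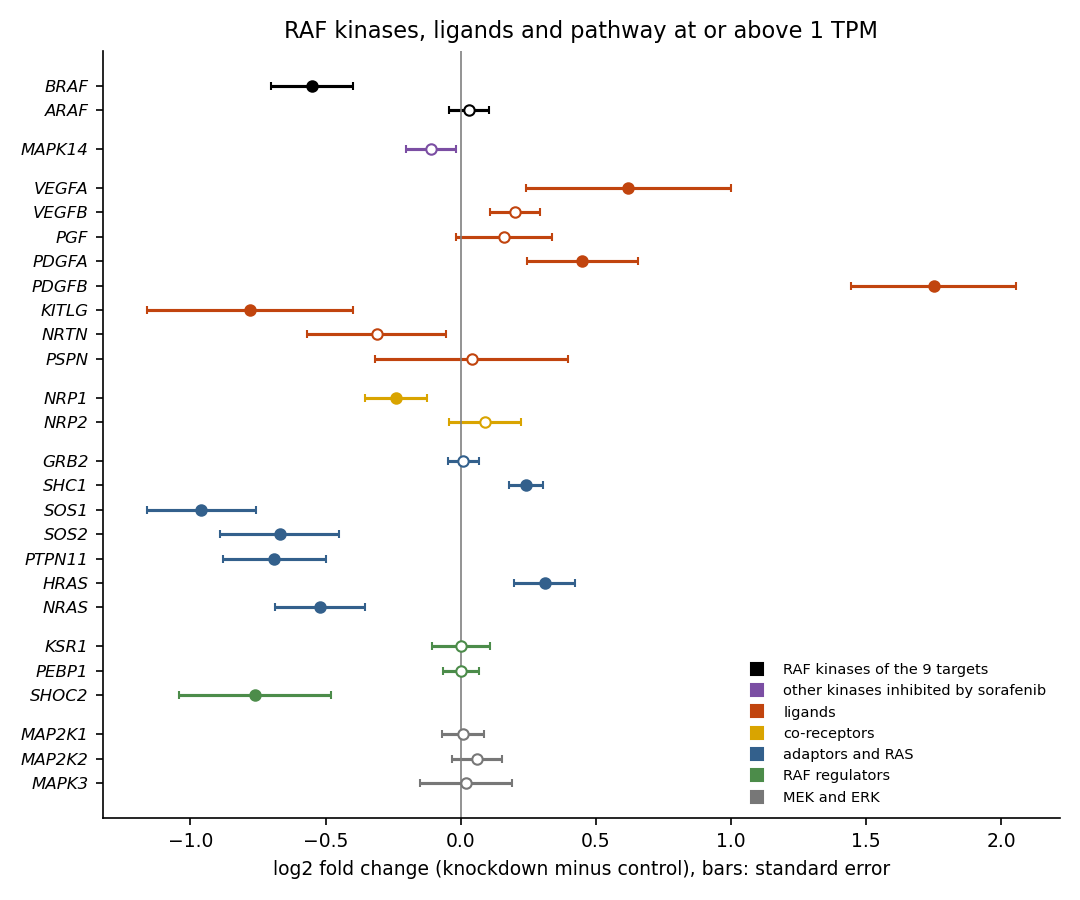
Log2 fold change, knockdown minus control, of BRAF, ARAF and the other tested genes of the pathway by role, with SE bars from the fit without the block. Symbols are filled where the adjusted p with the replicate block was under 0.05. PDGFB lies farthest to the right at 1.75 and SOS1 farthest to the left at -0.96.

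Over the 39 genes of these lists 24 could be tested. limma called 0 of them, and 8 had an unadjusted p under 0.05, beside 26.1% of all genes. limma-voom called 1 higher and 1 lower, and with the block limma called 5 higher and 7 lower, beside 9.94% and 25.0% of all genes. With the block and the GC-content offset the counts were 4 higher and 4 lower, beside 12.0% and 13.2% of the 12970 genes then tested. Without knockdown replicate 1 and with no block limma called 5 higher and 6 lower, PDGFB, SOS1, SHOC2 and KITLG among them. The share of all genes called in that fit is not given, so these counts cannot be set against it. The median log2 fold change of the 24 tested genes was 0.01, beside -0.08 for all tested genes. The genes called lower with the block included 5 of the lowest quintile by GC content, KITLG, SOS1, SOS2, NRAS and SHOC2, which also holds BRAF.

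The genes whose levels followed those of the expressed targets most closely over the 6 libraries were chosen by Pearson's r of log2(TPM + 1), given as a description. For BRAF they were CBX5, which encodes a heterochromatin protein, at 0.9997, and TRIP12, which encodes a ubiquitin ligase, at 0.9991. In all, 1437 genes reached 0.95 with BRAF, so such a likeness was common. For ARAF they were PITPNA-AS1, an antisense RNA, at 0.9898, and RNF5, which encodes a ubiquitin ligase, at 0.9879, and 39 genes reached 0.95. The 6 libraries share their 2 groups, and likeness to BRAF therefore includes the difference between groups.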

How the data were processed

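PolyA-Seq libraries of HCCLM3-SR cells with cDCBLD2 siRNA (n = 3) or control siRNA (n = 3) were grouped by their labels. The authors deposited TPM values per gene, each library summing to 1000000. The submitters' processing notes name fastp 0.20.1, HISAT2 2.1.0, StringTie 2.0 and hg38, without their roles. Annotation, counting tool, strand and multimapping settings are not given in the sources used here, so genes with overlaps or near-identical copies are uncertain. The labels do not say whether libraries came from separate cultures, and p-values measure the spread between these libraries.

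A count table had been allowed for in the design. Since the table holds TPM, limma 3.58.1 (R 4.3.3) with a mean-variance trend was run on log2(TPM + 1), two-sided, over 13980 genes (mean of 1 TPM or more), with Benjamini-Hochberg adjustment at 0.05. This scale understates the change of low genes. Single values were compared by exact permutation tests. Reads were recovered (numba 0.67.0, numpy 2.4.6) by dividing each library by 1 factor and taking, for each gene, the smallest whole numbers (within 0.002) whose ratios match its values. Of the 17285 genes above 0 in all 6 libraries, 90.34% gave whole reads of at most 2000 in the lowest library, against 0.0% with the factors moved at random by up to 10%. Recovered reads are lower bounds, and a floor of 3 reads covers counting error only. A gene above 0 in only 1 library is always given 1 read, whatever its depth. limma-voom used genes with at least 10 reads in 3 libraries.

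Replicate numbers come from the labels, which do not say what they stand for. Deviations from the group means correlated at 0.56, 0.343 and 0.362 between libraries numbered 1, 2 and 3, each over 0.1, so the numbers were taken to pair the libraries. Unlike numbers also reached 0.247 (knockdown 3 with control 2) and 0.215 (knockdown 2 with control 3), while replicate 1 correlated below 0 with the others, so the table mainly sets replicate 1 apart. The same values were used to accept the pairing and were then tested with it, which makes p-values with the block less sure.

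Gene positions, overlaps and GC content came from GENCODE 29 on GRCh38 and may differ from what the authors used: 25655 genes matched by symbol, 563 by an older symbol, and 92.8% of tested genes had a GC content. GC trends were removed by loess with a span of 0.5. The named genes are the 9 members, in each role list the gene with the highest mean and the tested gene with the largest fold change, and for each expressed member the 2 genes most like it. Other pathway genes are named as members of a count or after their values were seen. Results for some further genes of the lists are not reported here, and counts leave them out. The members and lists were chosen with earlier results of these data known. Scripts were tested on simulated data. Alternatives were another scaling, filter, pseudocount and unit, the block, the GC offset and leaving out each library. Python 3.11.15, pandas 2.3.3, scipy 1.17.1 and matplotlib 3.10.9 were used.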

Additional observations from a re-analysis of the deposited data

How the results depend on the processing

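BRAF was lower with knockdown in 14 of 14 alternatives, with an adjusted p under 0.05 by limma in 3 of them: the replicate block (-0.554), limma-voom with the block (-0.672) and leaving out knockdown replicate 1. Leaving out each library gave -0.675 to -0.483, and the other alternatives -0.743 to -0.188. ARAF turned sign with the GC-content offset (-0.0713, also with the block), and leaving out each library gave -0.00489 to 0.0666. The count of targets called lower was 1 with the block, 1 on limma-voom with the block and 0 to 1 when each library was left out, 1 only without knockdown replicate 1. The count of targets expressed was 1 at a mean of at least 5 TPM. Pathway genes called lower numbered 7 with the block, 4 with the block and GC offset, 1 on limma-voom and 6 on limma-voom with the block, and those called higher 5, 4, 1 and 6. Leaving out each library gave 0 to 6 lower and 0 to 5 higher, 6 and 5 without knockdown replicate 1. The cause was not tested. Shares of all genes called are not given for limma-voom with the block or for fits without a library, so those counts have no background beside them. Among named pathway genes, sign changes occurred at values near 0: PEBP1, MAP2K2 and MAPK14 with the GC offset (-0.0188, -0.0552 and 0.0586, the same with the block), and, when a library was left out, GRB2 (-0.0184 to 0.0331, with -0.012 without control replicate 2) and PEBP1 (-0.0354 to 0.0497, with -0.000466, -0.000765 and -0.0021 among them). The difference in the log2 ratio of BRAF to ARAF was below 0 in all alternatives, from -1.02 to -0.117, and the exact test could not reach p = 0.05 in any of them. On log2(TPM + 1) without the GC offset, the block changed no call of a named gene other than those in the text. Depth limits the receptors, for which at most 24 reads per library were recovered, as a lower bound.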
